A study of Homo sapiens with 10 samples.

Results

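The comparison set the A549 line that carries the type 1 ABCA3 variant L101P (2 libraries) against the lines that carry the type 2 variants E292V and E690K (4 libraries), which makes 6 of the 10 libraries of the series. A549 is an established human lung adenocarcinoma line, and the variants are amino acid changes in ABCA3. Every line gave an untreated library and one made after overnight exposure to a VSVG-pseudotyped lentivirus, LV-ABCA3:GFP, at a multiplicity of infection of 20, and RNA was sequenced from total-RNA libraries. The other 4 libraries came from wild-type (WT) cells and from cells whose label says ABCA3 knockout (KO), each with both treatments. Vector status was a covariate, and a gene was kept when L101P differed from E292V and from E690K, each taken separately, in the same direction. Of 17261 genes tested, 3 were kept (0.0174%). Each variant was represented by 1 line, with 1 library per line and treatment, so the effect of a variant type cannot be told apart from differences between these particular lines. The p-values weigh each difference between lines only against how far the libraries depart from a common vector effect across the lines. That spread, moderated over genes, holds no replicate cultures of a line and treatment.

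ABCA3 is an ATP-binding cassette transporter that moves lipid into lamellar bodies, the lysosome-related organelles from which alveolar type 2 cells secrete surfactant. In the usual classification, type 1 variants such as L101P are misfolded and held back on the way through the endoplasmic reticulum. Type 2 variants such as E292V and E690K reach the lysosome-like bodies but transport lipid poorly. The gene lists below therefore include the unfolded protein response, lysosomal genes, surfactant genes and lipid synthesis.

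The 6 libraries held 59430095 to 96811421 counts, and both extremes were L101P libraries, the untreated one being the shallower. All 10 A549 epithelial markers reached at least 1 CPM (counts scaled by the library total) in each of the 6 libraries. Of 9 markers that define alveolar type 2 cells, 8 stayed under 1 CPM in all 6. The L101P vector library stood apart from its untreated partner. Over 9439 genes, the root-mean-square difference in log2 CPM was 0.24 between the L101P libraries, 0.18 between the E292V libraries and 0.11 between the E690K libraries. Untreated L101P was closer to untreated and vector E690K (0.178 and 0.202) than to vector L101P (0.244). It was also closer to both libraries labelled KO (0.170 and 0.176) and to vector WT (0.236). Untreated WT (0.258) and untreated and vector E292V (0.288 and 0.368) were farther away. Some counts of called genes are given without vector L101P as well, but not every count that moved by more than 1.5 times without it. For several gene lists the median without it is given. A fit without 1 library leaves 1 library of that line, which is assumed to vary like the other lines. The spread within that pair then no longer enters the error, so counts of calls from such fits do not measure how stable a result is.

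ABCA3 itself (GRCh38 chromosome 16, 2275881 to 2340746, minus strand) was at 1156 CPM in untreated and 896 CPM in vector L101P cells. It was at 992 and 1035 CPM in E292V and at 889.7 and 968 CPM in E690K. The L101P libraries thus held both the highest value and one of the lowest. Averaged over treatments, the L101P level minus that of E292V was 0.08 on the log2 scale (SE 0.11, edgeR adjusted p = 0.729), and minus that of E690K 0.13 (SE 0.11, adjusted p = 0.826). These values depended on which L101P library was used. Without the L101P vector library ABCA3 was higher in L101P than in E292V by 0.27 (edgeR adjusted p = 0.0161) and than in E690K by 0.34 (edgeR adjusted p = 0.00451). Without the untreated one the differences turned to -0.16 (edgeR adjusted p = 0.213) and -0.094 (edgeR adjusted p = 0.651). In either case 1 L101P library was left, which was assumed to vary like the other lines. The counts do not separate transcripts of the gene from those of the vector. EGFP, which has its own row, was at 1.01 and 35.9 CPM in L101P, 20.7 and 66.8 CPM in E292V and 16.3 and 18.0 CPM in E690K, so the lines labelled untreated were not free of it. The row for tdTomato, another fluorescent protein, was at 12.7 and 5.60 CPM in L101P, 8.98 and 7.51 CPM in E292V and 7.30 and 8.40 CPM in E690K.

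Surfactant protein transcripts were at the edge of detection. Per library of the 6, SFTPA1 had at most 11 counts, SFTPA2 at most 10, SFTPB at most 12, SFTPC at most 20 and SFTPD at most 36. The last of these genes, SFTPC and SFTPD, were abundant enough to test, and neither differed between L101P and a type 2 line at adjusted p under 0.05. At this depth no difference in these genes was detectable.

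More genes were called against E292V than against E690K, and the contrast between these comparisons is that of E292V with E690K. Against E292V, 1131 genes were higher in L101P (6.55% of the genes tested) and 632 lower (3.66%), together 10.2%. Against E690K, 1 gene was higher (0.00579%) and 4 were lower (0.0232%), together 0.029%, with 1474 genes at an unadjusted p under 0.05. The lines of the same variant type, E292V and E690K, differed in 1294 genes (7.5%). Against the mean of both type 2 lines, L101P differed in 455 genes (2.64%). Among the untreated libraries, 16 of 9439 genes differed at least 2-fold between L101P and E690K (2 higher, 14 lower), against 98 between L101P and E292V and 124 between E292V and E690K. Among the vector libraries both the direction and the order differed: 78 genes did so between L101P and E690K (54 higher, 24 lower), 352 between L101P and E292V and 179 between E292V and E690K. These counts compare 1 library with 1 other, without a test.

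**Figure D1:**
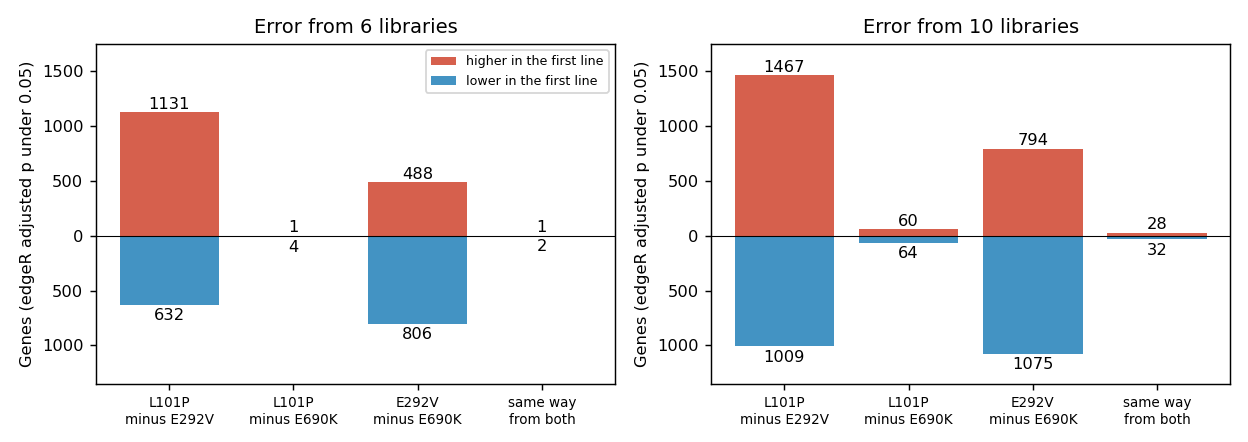
Number of genes past an edgeR adjusted p of 0.05 in each comparison (y axis, genes; red bars above the line are higher and blue bars below it are lower in the line named first). The left panel takes the error from the 6 variant libraries and the right panel from all 10; in both, the L101P against E690K bars (1 and 4, then 60 and 64) are the shortest of the 3 comparisons between lines.

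The number of genes that pass depends on the error, which rests on few libraries. Fitted with all 10 libraries, 2476 genes differed from E292V (13.8% of 17978), 124 from E690K (0.69%) and 1869 between the type 2 lines (10.4%). Leaving out single libraries gave 819 to 3587 genes against E292V, 1 to 1430 against E690K and 275 to 3126 between the type 2 lines. In each of the 14 settings run on all 3 comparisons, the original one included, the count against E690K was the smallest. The count against the type 2 mean went from 47 to 2567, with 2567 without untreated L101P, 1370 without untreated E292V, 170.0 without untreated E690K and 47 without vector E690K. That between the type 2 lines was 3126 and 3118 without untreated and vector L101P, 740.0 without vector E292V, and 275 and 287 without untreated and vector E690K. Of the 6 libraries, only those of untreated L101P, vector E292V and either E690K culture moved the count against E292V by more than 1.5 times when left out, to 3587, 819, 1123 (untreated E690K) and 1038 (vector E690K). Every one of the 6 did so for the count against E690K.

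One gene was kept as higher in L101P (0.00579% of genes tested) and 2 as lower (0.0116%). CPS1, higher in L101P, encodes carbamoyl phosphate synthetase 1, the mitochondrial enzyme that makes carbamoyl phosphate for the urea cycle. GFRA1, not counted at all in L101P, encodes the GDNF co-receptor that presents its ligand to the RET tyrosine kinase. TGM2, lower in L101P, encodes tissue transglutaminase, which cross-links proteins of the extracellular matrix. The number kept moved with each library: it was 1089 without untreated L101P, 86 without vector L101P, 212 without untreated E292V, 136 without vector E292V and 1 without either E690K library.

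CPS1 (ENSG00000021826.15, chromosome 2, 210477682 to 210679107, plus strand) was at 70.7 CPM in untreated and 36.6 CPM in vector L101P cells. It was at 10.8 and 5.71 CPM in E292V and at 12.03 and 9.36 CPM in E690K. Both L101P values lay above all 4 type 2 values, as in 9.08% of all genes tested and as the selection favours. The log2 fold change was 2.76 against E292V (SE 0.16, edgeR adjusted p = 0.000116) and 2.25 against E690K (SE 0.15, adjusted p = 0.0019), or 6.78-fold and 4.75-fold. CPS1 was the gene that still passed when either E690K library was left out. It lost its call against E690K only when vector status was dropped from the model (adjusted p = 0.0797). WT cells, which no part of the selection used, lay between the types at 26.4 and 28.2 CPM, and the line labelled KO was at 69.0 and 68.6 CPM, level with untreated L101P.

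GFRA1 (ENSG00000151892.14, chromosome 10, 116056925 to 116273467, minus strand) had 0 counts in both L101P libraries. It had 532 and 2243 counts in E292V (6.75 and 23.6 CPM) but only 14 and 36 counts in E690K (0.185 and 0.461 CPM). Taking 6 counts, which stand for 3 read pairs, as the floor of each L101P library, GFRA1 was at least 66.8-fold lower than in untreated E292V and at least 382-fold lower than in vector E292V. Against E690K these bounds were at least 1.83-fold and at least 7.43-fold. The edgeR adjusted p was 6.7e-05 against E292V and 0.0319 against E690K. The second call was lost without untreated E690K (adjusted p = 0.092), without vector E690K (adjusted p = 0.257) and without the vector covariate (adjusted p = 0.298). WT cells had 7.66 and 19.0 CPM, near E292V, whereas the line labelled KO had 2 and 0 counts, near L101P. The type 2 lines were thus far apart for this gene. Of the 6 other members of the GDNF receptor list that were tested, none differed between L101P and either type 2 line at adjusted p under 0.05, and RET was at 1.06 to 4.15 CPM in the 6 libraries.

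TGM2 (ENSG00000198959.11, chromosome 20, 38127387 to 38166578, minus strand) was at 390.3 and 451 CPM in L101P. It was at 761 and 658 CPM in E292V and at 791 and 879 CPM in E690K, so the groups did not overlap. L101P lay below all 4 type 2 libraries in 10.2% of all genes tested, and the selection favours such genes. The log2 fold change was -0.69 against E292V (SE 0.11, edgeR adjusted p = 0.00537) and -0.997 against E690K (SE 0.11, adjusted p = 0.0319). As for GFRA1, the call against E690K was lost without untreated E690K (adjusted p = 0.103), without vector E690K (adjusted p = 0.558) and without the vector covariate (adjusted p = 0.0764), with the sign unchanged. WT was at 625 and 603 CPM, and the line labelled KO was at 355 and 364 CPM. The TGM2 locus overlaps RPRD1B on the opposite strand, and whether counting used strand is not stated.

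FOSL1, a subunit of the AP-1 transcription factor, was called against E690K but did not differ the same way from E292V and was not kept. It was at 53.9 and 61.6 CPM in L101P, 48.7 and 69.0 CPM in E292V and 101.2 and 112 CPM in E690K, so that L101P overlapped E292V and lay below E690K. The log2 fold change was -0.90 against E690K (SE 0.10, edgeR adjusted p = 0.0319) and 0.05 against E292V (adjusted p = 0.802). The call against E690K was lost without untreated E690K (adjusted p = 0.468), without vector E690K (adjusted p = 0.257) and without the vector covariate (adjusted p = 0.115).

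The promoter windows of CPS1 and GFRA1 are shown because they are the kept genes with a RefSeq promoter entry (GRCh38.p14). Each gives the 250 bases before the RefSeq start, 5′ to 3′ on the gene's strand. In CPS1 (chr2:210593105-210593354, plus strand) the capitals mark the motif AGATAA, which GATA factors recognise, read on the opposite strand. In GFRA1 (chr10:116274706-116274955, minus strand) they mark TGTTTAC, a motif of forkhead factors. The CPS1 window lies inside the GENCODE interval of the gene and overlaps none of its exons, and the GFRA1 window lies outside the interval of its gene.
CPS1: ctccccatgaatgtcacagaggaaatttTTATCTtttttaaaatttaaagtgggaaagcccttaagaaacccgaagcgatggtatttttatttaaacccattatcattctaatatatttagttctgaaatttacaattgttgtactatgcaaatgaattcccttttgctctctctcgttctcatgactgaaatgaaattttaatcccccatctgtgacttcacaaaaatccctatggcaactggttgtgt
GFRA1: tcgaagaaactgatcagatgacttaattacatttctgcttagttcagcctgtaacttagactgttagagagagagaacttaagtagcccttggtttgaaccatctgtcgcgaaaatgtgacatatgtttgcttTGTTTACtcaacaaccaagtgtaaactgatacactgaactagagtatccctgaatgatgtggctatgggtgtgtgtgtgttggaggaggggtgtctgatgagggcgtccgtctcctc
Of 6 motifs searched as exact letters on both strands (TATAAA for the promoter box of that name, TGACTCA for AP-1 factors, GGAATG for TEAD factors, CACGTG for the palindromic E-box, and the pair just shown), each window held the 1 in capitals. AGATAA stood in 5.16% of the 12022 matched promoters of tested genes and TGTTTAC in 2.13%, and a match is no evidence of binding. The CPS1 window had a GC content of 33.6% and the GFRA1 window 43.2%, against a median of 64.4% over those promoters.

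With the error taken from all 10 libraries, 28 genes were kept as higher in L101P (0.156% of 17978) and 32 as lower (0.178%), together 0.334%, and the 3 genes above were among these 60. Of the 60, 23 were kept when the labels within the KO pair were exchanged, 16 without the KO pair, 50 without the WT pair, 33 without vector L101P and 60 without untreated L101P. This check of the KO labels was made because EGFP was at 37.9 CPM in the KO library labelled untreated and at 0.0492 CPM in the one labelled as transduced, and ABCA3 at 601 and 25.8 CPM. Across those 5 choices of libraries and labels, 12 genes were kept throughout, 4 higher and 8 lower. They were selected after their values were seen. All but CPS1 and TGM2 missed the threshold against E690K when only the 6 libraries set the error, at adjusted p of 0.0576 to 0.0825.

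**Figure D2:**
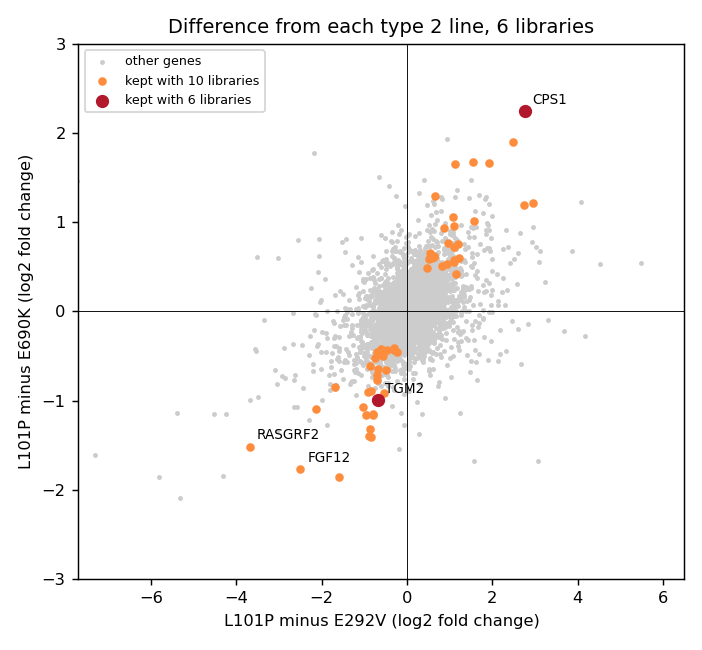
Log2 fold change of L101P against E292V (x axis) and against E690K (y axis) from the 6-library fit, for 11967 genes with an average of at least 1 on the log2 CPM scale; 3 further genes lie outside the axes. Both axes contain the same L101P libraries, which by itself spreads points along the diagonal; orange points are genes kept with all 10 libraries and red points those kept with 6, with CPS1 at the upper right (GFRA1 is outside the axes).

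Besides CPS1, the higher genes of that set were BDKRB2, SLC40A1 and RAP1GAP. SLC40A1, or ferroportin, the iron exporter of the plasma membrane, was at 25.7 and 27.5 CPM in L101P, 13.9 and 12.2 CPM in E292V and 14.3 and 12.9 CPM in E690K. RAP1GAP, which switches off the small GTPase RAP1, was at 219.5 and 267 CPM in L101P, 161 and 121 CPM in E292V and 131 and 124 CPM in E690K. BDKRB2, the bradykinin B2 receptor, was at 7.20 and 10.3 CPM in L101P, 3.87 and 2.49 CPM in E292V and 2.67 and 2.78 CPM in E690K. For the 3 genes the L101P libraries lay above the 4 type 2 libraries, at 1.8-fold to 3.2-fold in the 10-library fit, and the smallest of these folds was that of RAP1GAP against E292V. WT lay between the types for BDKRB2 (5.41 and 4.69 CPM), SLC40A1 (20.7 and 21.8 CPM) and RAP1GAP (213 and 177 CPM). The line labelled KO was nearer to L101P for each, at 6.27 and 7.70 CPM, 26.9 and 25.3 CPM, and 252 and 260 CPM in the same gene order.

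Lower genes of that set included FGF12 and RASGRF2, for which L101P was below all 8 other libraries, as it was for DUSP1 and IL32 below. FGF12, an intracellular fibroblast growth factor homologue that binds sodium channels, was at 0.656 and 0.754 CPM in L101P. It was at 4.63 and 3.83 CPM in E292V, 2.47 and 2.34 CPM in E690K, 2.78 and 2.57 CPM in WT and 2.67 and 2.61 CPM in the line labelled KO. The 10-library log2 fold change was -2.52 against E292V (SE 0.24, edgeR adjusted p = 6.7e-05) and -1.76 against E690K (SE 0.24, adjusted p = 0.00967), and L101P stood apart from all 4 other lines in the same direction.

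RASGRF2, an exchange factor that activates RAS and RAC, was at 1.28 and 1.16 CPM in L101P. The type 2 lines differed widely, with 14.3 and 18.4 CPM in E292V and 3.60 and 3.30 CPM in E690K, while WT had 4.23 and 7.54 CPM and the line labelled KO 5.03 and 5.02 CPM. The 10-library log2 fold changes were -3.70 (SE 0.24, edgeR adjusted p = 1.25e-05) and -1.53 (SE 0.24, adjusted p = 0.0184). Antisense genes overlap both FGF12 and RASGRF2.

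STC2, SOCS2, MYOM3, DUSP1 and IL32 completed the lower genes. STC2, the secreted glycoprotein stanniocalcin 2, was at 13.3 and 8.24 CPM in L101P against 19.9 to 30.1 CPM in the 4 type 2 libraries. SOCS2, a suppressor of cytokine signalling, was at 13.3 and 9.36 CPM against 19.1 to 22.4 CPM. MYOM3, a sarcomeric myomesin, was at 3.23 and 4.83 CPM against 7.19 to 10.9 CPM. DUSP1, a phosphatase of mitogen-activated protein kinases, was at 35.3 and 36.1 CPM against 52.0 to 72.3 CPM, and the cytokine IL32 was at 5.45 and 5.10 CPM against 8.22 to 13.0 CPM. The groups did not overlap for any of the 5. Relative to WT the picture differed: WT was inside or near the L101P range for STC2 (12.7 and 16.6 CPM) and below it or within it for MYOM3 (2.27 and 3.51 CPM), but at the type 2 level for DUSP1 (57.4 and 56.2 CPM).

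**Figure D3:**
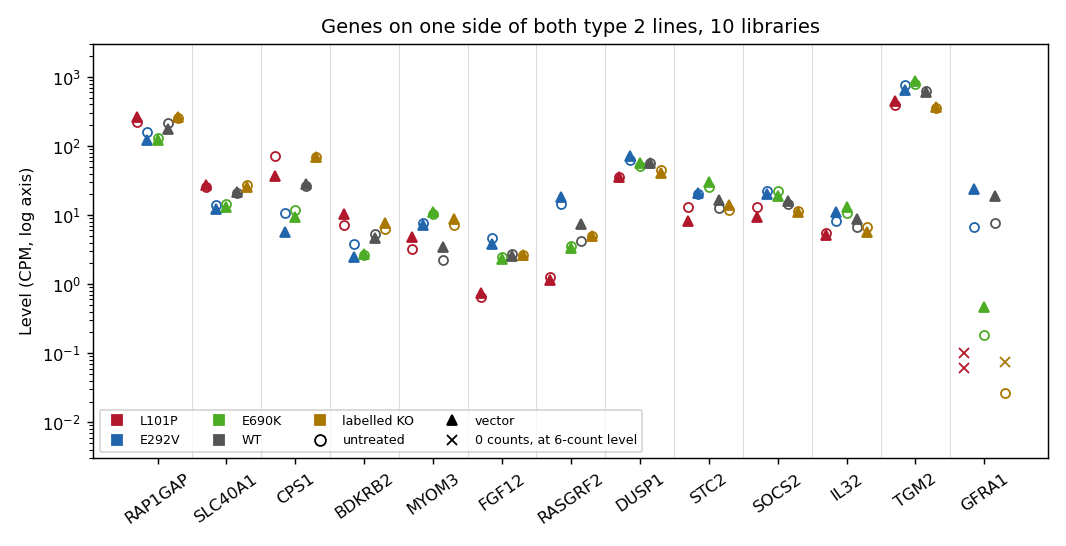
Level in CPM (log axis) of GFRA1 and of the 12 genes kept under each library choice around the 10-library fit except the 6 libraries alone. With those 6 alone, only CPS1 and TGM2 of the 12 were kept. Open circles are the untreated and filled triangles the vector library of each line. A cross marks a library with 0 counts, drawn at the level of 6 counts. The L101P symbols (red) lie on one side of the E292V and E690K symbols for each gene, which the selection of these genes favours. The position of WT and of the line labelled KO varies.

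The named genes of the 60 were, by rule, the 12 higher and 12 lower with the largest smaller fold change. Higher genes beyond those above were C9orf152, RAB37, FCGBP, SCARA5, CD14, CYP4F11, SPDEF and HGD. SPDEF, the transcription factor that drives goblet cell differentiation, was at 66.2 and 79.5 CPM in L101P against 18.9 to 37.4 CPM in the type 2 libraries. HGD, an enzyme of tyrosine breakdown, was at 61.1 and 80.5 CPM against 29.4 to 42.3 CPM. SCARA5, a ferritin receptor, was at 26.9 and 41.6 CPM, above 4.15 to 15.4 CPM, and C9orf152 was at 8.18 and 15.4 CPM, above 1.73 to 3.83 CPM. These 8 genes lost their place when the KO pair was left out, and FCGBP, CD14, CYP4F11 and HGD also when vector L101P was.

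The lower genes beyond those above were VCAN, RNF182, NPTX1, SRGN, AC020916.1 and CGB8. VCAN, the matrix proteoglycan versican, was at 10.4 and 13.9 CPM in L101P, 47.8 and 63.8 CPM in E292V and 27.1 and 24.0 CPM in E690K. It was at 9.58 and 11.5 CPM in WT, so that for VCAN the type 2 lines stood above both L101P and WT. The 10-library log2 fold change was -2.15 against E292V (SE 0.14, edgeR adjusted p = 1.25e-05) and -1.10 against E690K (SE 0.14, adjusted p = 0.00673), and the gene lost its place when the KO labels were exchanged. Without the KO pair RNF182, NPTX1, SRGN, AC020916.1 and CGB8 were no longer kept. CGB8 belongs to a family of nearly identical chorionic gonadotropin genes, and AC020916.1 overlaps ZSWIM4 and a microRNA cluster, so their counts are uncertain.

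WT and KO libraries took part in that error estimate but not in the direction of the rule, and place the genes further. Of the 28 higher genes, WT was nearer to L101P than to the type 2 mean in 14, and the line labelled KO was nearer to L101P in 28. Of the 32 lower genes the numbers were 13 and 25. Over all 17978 genes tested, WT was nearer to L101P in 38.5% and the line labelled KO in 57.3%. Among genes with both L101P libraries above all 4 type 2 libraries these shares were 39.2% and 69.3%. Among those with both below they were 25.8% and 59%. For 27 of the 28 and 26 of the 32, the line labelled KO was closer to L101P than WT was, as it was for 64.2% of all genes. Among all genes with L101P beyond the 4 type 2 libraries, it was so for 71.3% of those above and 73.1% of those below. L101P lay beyond all 8 other libraries in 5 of the higher and 12 of the lower genes. It did so for 416 of the 1604 genes tested in which it was above all 4 type 2 libraries (25.9%) and for 589 of the 1820 in which it was below them (32.4%). L101P lying outside the 4 type 2 libraries was common in itself, with 9.08% of the 17261 genes above and 10.2% below.

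The gene lists moved mainly against E292V, where 10.2% of all genes tested were called. None of the members of 15 of the 16 lists was called against E690K, and GFRA1 was the only member called in the other list. Of the 400 list members tested by edgeR, 97 were at an unadjusted p under 0.05 against E690K, and the DESeq2 Wald test called 20 at its adjusted p under 0.05. The median log2 fold change of all genes was 0.00 in both comparisons. The absence of calls against E690K depended on the library: edgeR called members of 14 of the 16 lists without untreated L101P, when 7.8% of all genes were called, and of 11 without vector L101P, when 1.57% were. Without untreated L101P, 19.6% of all genes were called against E292V. The number of members called against E292V then rose to 7 in the unfolded protein response list below, 16 among lysosomal, 10 among inflammatory, 8 among interferon, 11 among p53 and 14 among S phase genes.

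Genes of the unfolded protein response and of its degradation arm, ERAD, were called against E292V in 10.3% of members, near the 10.2% of all genes. Of 39 genes, 1 was higher and 3 were lower in L101P than in E292V, with a median log2 fold change of 0.07, and the median against E690K was 0.08. HSPA5, the main endoplasmic reticulum chaperone, was at 678 and 557 CPM in L101P, 615 and 617 CPM in E292V and 606 and 607 CPM in E690K. Its log2 fold change was 0.06 against E292V (SE 0.09) and 0.01 against E690K (SE 0.09), so L101P bracketed the type 2 values. The lower genes were ASNS, TRIB3 and CHAC1, which are known targets of the ATF4 branch. ASNS was at 32.4 and 28.2 CPM in L101P, 71.6 and 80.2 CPM in E292V and 37.1 and 34.9 CPM in E690K, so that E292V was the line apart. The higher gene was CRELD2, at 0.60 on the log2 scale (SE 0.13, edgeR adjusted p = 0.023).

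Of 36 lysosome and autophagy genes, 5 were higher and 2 lower in L101P than in E292V, with median log2 fold changes of 0.02 against E292V and 0.04 against E690K. CTSD, a lysosomal protease, was at 182 and 205 CPM in L101P, 145 and 144 CPM in E292V and 161 and 167 CPM in E690K. GAA, which breaks down lysosomal glycogen, was higher than in E292V by 0.73 (SE 0.15, edgeR adjusted p = 0.015). The lower genes were NPC2, a lysosomal cholesterol carrier, and the transcription factor MITF.

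Calls among lipid synthesis genes were mostly of lower levels in L101P than in E292V. Of 24 cholesterol synthesis genes, 8 were lower and 1 (EBP) higher than in E292V, with a median log2 fold change of -0.30, against 0.07 in the comparison with E690K. SCD, which desaturates fatty acids, was at 442 and 395 CPM in L101P, 786 and 925 CPM in E292V and 371 and 369.9 CPM in E690K. Of 33 fatty acid and phospholipid genes 4 were lower (SCD, FASN, FADS2 and ACACA) and 2 higher (ACACB and AGPAT2) than in E292V. Within the ABCA family, ABCA1, the cholesterol exporter, was lower than in E292V by 1.73 on the log2 scale (-1.73, SE 0.26, edgeR adjusted p = 0.00459) and ABCA2 was higher by 0.33 (adjusted p = 0.0329), among 7 of 12 members that could be tested.

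Of 14 tested surfactant and alveolar type 2 genes, FOXA1, MUC1 and CEBPA were higher and FOXA2 lower in L101P than in E292V. Of 24 interferon response genes OAS1 and OAS3 were higher and IFI44, at under 1 CPM in all 6 libraries, was lower. CXCL8 was higher and CCL2, ICAM1 and IL32 were lower among 20 NF-kB and inflammatory genes. Of 24 p53 response genes 5 were lower, GDF15, CCNG1, SESN2, ZMAT3 and BAX. Of 32 S phase and mitosis genes 6 were higher, with RRM2, a ribonucleotide reductase subunit, the most so at 0.72 (SE 0.10, edgeR adjusted p = 0.00293). Without vector L101P, the medians against E292V were 0.26 for surfactant and alveolar type 2, -0.09 for p53 and 0.13 for S phase genes. With it they were 0.30, -0.23 and 0.21.

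**Figure D4:**
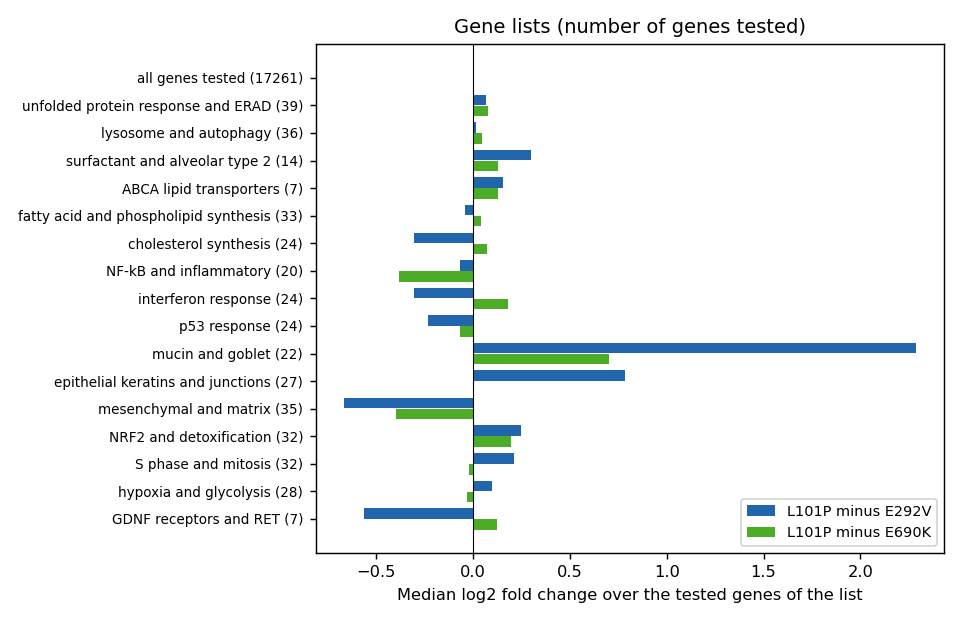
Median log2 fold change of L101P against E292V (blue) and against E690K (green) over the tested members of each gene list; the number tested follows each list's name. The mucin and goblet list has the longest bars in both comparisons (2.29 and 0.70), and the bar of all genes is at 0.00.

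Epithelial and mesenchymal genes separated L101P from E292V in opposite directions. Of 27 keratin and junction genes 17 were higher and 2 lower, and KRT19, a simple-epithelium keratin, was at 204 and 459 CPM in L101P, 80.8 and 62.4 CPM in E292V and 278 and 271 CPM in E690K. The keratin and junction genes also moved with the vector L101P library: 9 of the 27 were called as more positive in the test of L101P and vector together (described with the mucin genes), against 2.32% of all genes. Without that library the median log2 fold change of keratin and junction genes against E292V was 0.41 in place of 0.78. The median against E690K went from 0.00 to -0.19. Of 35 mesenchymal and matrix genes 15 were lower and 2 higher. DPYSL3 was at 2.15 and 0.95 CPM in L101P, 108 and 450.1 CPM in E292V and 4.15 and 4.68 CPM in E690K, and COL1A1 was at 22.6 and 13.8 CPM, 74.3 and 118 CPM, and 21.3 and 30.3 CPM in the same order. For DPYSL3 and COL1A1 the E292V values lay apart from the other 4 of the variant lines. DPYSL3 was also high in WT, at 66.7 and 204 CPM, and was at 1.17 and 1.40 CPM in the line labelled KO. The summed level of 7 fibroblast markers was 16.1 to 24.5 CPM in L101P, 78.2 to 121 CPM in E292V and 24.9 to 34.7 CPM in E690K, carried by COL1A1. Its part in these results was not tested. Without vector L101P, the median of the mesenchymal genes was -0.42 against E292V and -0.19 against E690K, in place of -0.66 and -0.40.

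The NRF2 and detoxification list holds targets of the oxidative stress factor NRF2 and other detoxification genes. Of 32 members, 12 were higher and none lower in L101P than in E292V. The median log2 fold change against E292V was 0.25, and 0.21 without vector L101P. Against E690K the median was 0.20, with 0.14 without vector L101P and 0.22 without untreated L101P. In the test of L101P and vector together, 7 were called as more positive and 2 as more negative. With all 10 libraries these were 1 and 1, and 2 and 0 when the KO labels were exchanged as well. The DESeq2 Wald test called 4 and 1. AKR1B10, AKR1C1 and CYP4F11 were also kept with all 10 libraries. AKR1B10, an aldo-keto reductase, was at 1933 and 2481 CPM in L101P against 1384 to 1497 CPM in the 4 type 2 libraries. Its 10-library log2 fold change was 0.60 against E292V and 0.61 against E690K (SE 0.11 for both, edgeR adjusted p = 0.00278 and 0.028). AKR1C1 shares much of its sequence with AKR1C2 and AKR1C3, and its level is uncertain to that extent. Of 28 hypoxia and glycolysis genes 9 were higher and 4 lower than in E292V. CA12, a carbonic anhydrase, was at 647 and 676 CPM in L101P against 336 to 475 CPM, and was kept with 10 libraries, as was EGLN3, an oxygen-sensing prolyl hydroxylase.

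Mucin and goblet genes had the largest list median, and their difference depended on the vector label. Of 22 tested, 14 were higher and none lower in L101P than in E292V, with a median log2 fold change of 2.29, and the median against E690K was 0.70 with no gene called. Without vector L101P the median was 1.09 against E292V, and against E690K the direction turned, with a median of -0.33. Without untreated L101P the median against E690K was 1.52. A term for L101P and vector together asked whether the difference from the type 2 lines changed with treatment. It was called for 400 genes (2.32% of 17261). The change from untreated to vector was more positive in L101P than in the type 2 lines for 299 of these (1.73%) and more negative for the others (0.585%). It was called, all more positive, for 16 of the 22 goblet genes. With all 10 libraries it was called for 10 of the 22, and in the DESeq2 Wald test for 7 of the 17 with an adjusted p. Since each line had 1 library per treatment, this term rests on 1 L101P library against 1 other, and an effect of the vector cannot be told apart from another difference between those cultures. The L101P pair also differed most in depth among the 3 variant lines (59430095 and 96811421 counts), and the part of depth was not tested.

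MUC5AC, a secreted airway mucin, was at 77.4 CPM in untreated and 447 CPM in vector L101P cells. It was at 17.5 and 10.4 CPM in E292V and at 103 and 91.4 CPM in E690K. Untreated L101P therefore lay below E690K, and vector L101P above it. TFF1, a trefoil peptide secreted with mucin, was at 20.8 CPM untreated and 106 CPM with vector in L101P, 1.98 and 0.654 CPM in E292V, and 37.9 and 38.02 CPM in E690K. CEACAM6, a cell-surface adhesion protein, went from 230.02 to 963 CPM, from 38.3 to 24.2 CPM and from 689 to 623 CPM. AGR2, which folds mucins in the endoplasmic reticulum, went from 315 to 884 CPM, from 259 to 164 CPM and from 222 to 193 CPM. The interaction was 2.99 for MUC5AC (SE 0.16, edgeR adjusted p = 3.94e-16), 2.79 for TFF1 (SE 0.26, adjusted p = 1.25e-09), 2.48 for CEACAM6 (SE 0.14, adjusted p = 3.27e-15) and 1.94 for AGR2 (SE 0.14, adjusted p = 1.26e-12), on the log2 scale. In each the L101P libraries parted while the E690K libraries stayed level. The line labelled KO also rose with the vector label: MUC5AC from 64.7 to 178 CPM, TFF1 from 17.6 to 35.5 CPM, CEACAM6 from 513 to 1015 CPM and AGR2 from 356 to 460 CPM. EGFP in that pair ran against the labels (37.9 and 0.0492 CPM). WT went from 14.2 to 21.8 CPM, 2.82 to 2.58 CPM, 76.3 to 91.9 CPM and 360 to 251 CPM in the same gene order. The Wald test did not call TFF1, MUC5B, MUC13, SPDEF, FOXA3, GALNT5, ST6GALNAC1 or BPIFB1. MUC2, at 4.29 in the 6 libraries, lost its call with 10 libraries (3.00) and with 8 (2.91).

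**Figure D5:**
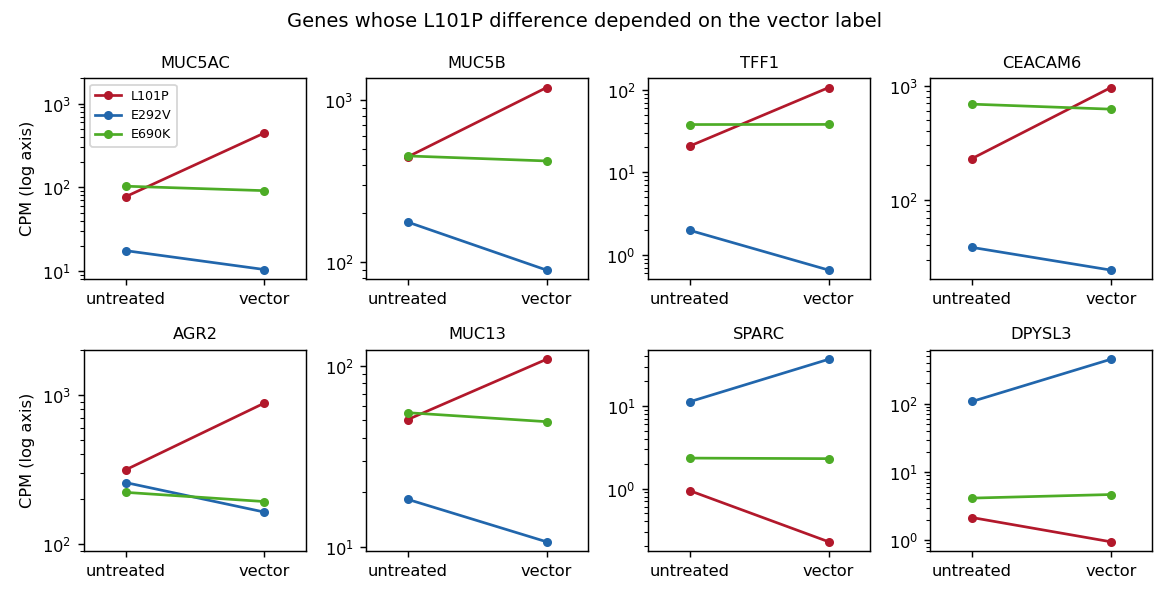
CPM (log axes) in the untreated and vector library of L101P (red), E292V (blue) and E690K (green), 1 library per point, for 6 genes of the mucin and goblet list and for SPARC and DPYSL3 of the mesenchymal list. The L101P line rises in the 6 goblet genes, as from 77.4 to 447 CPM in MUC5AC, and falls in SPARC and DPYSL3, while E690K stays nearly flat. E292V falls in the 6 goblet genes and rises in SPARC (11.3 to 36.7 CPM) and DPYSL3 (108 to 450.1 CPM). WT and the line labelled KO are not drawn.

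Mesenchymal genes showed the opposite course, with 11 of 35 called as lower and 2 as higher in the interaction. With all 10 libraries these were 4 and 1, as in the Wald test. SPARC, a matrix-binding glycoprotein, was at 0.942 CPM untreated and 0.227 CPM with vector in L101P, 11.3 and 36.7 CPM in E292V, and 2.34 and 2.30 CPM in E690K, an interaction of -2.99 (SE 0.53, edgeR adjusted p = 0.000446). SPARC lost its call with 10 libraries (edgeR adjusted p = 0.0519) and in the Wald test (adjusted p = 0.625). Here too the lines that moved were L101P and E292V. Across all 9439 genes compared, 41 were at least 2-fold higher and 4 at least 2-fold lower in vector than in untreated L101P cells, against 13 and 2 in E292V and 0 and 0 in E690K.

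Position was examined for the 11853 genes that averaged at least 2 CPM over the 6 libraries and matched 1 gene name of the annotation. Of these, 13.4% were called against E292V and 5 genes against E690K, and the medians were 0.02 and 0.01 on the log2 scale. Of 376 such genes on the X chromosome, 102 were higher and 10 lower in L101P than in E292V (29.8% called), with a median log2 fold change of 0.16. Against E690K none of them was called and the median was 0.02. Of 9 genes on the Y chromosome, 6 were lower than in E292V and none higher. Their medians were -0.63 against E292V and -0.45 against E690K, where none was called.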

How the data were processed

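RNA was measured in 10 libraries, 1 for each of 5 lines and 2 treatments. The deposited table gives whole-number counts per gene, made by the authors; featureCounts, Subread, edgeR, limma and GRCh38 are named, without versions, in the submitters' processing notes, and aligner and strand setting are not given in the sources used here. Among values of 1 to 10 in the 6 libraries, 81.6% were even, the form of a table that counts both mates of a pair, so 6 counts are taken as 3 read pairs. The 11 rows of viral sequences were left out, which left 33540 rows.

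Tests used edgeR 4.0.16 under R 4.3.3 (quasi-likelihood test, filterByExpr by line, TMM scaling, Benjamini-Hochberg adjustment over all genes tested, threshold 0.05). The additive model of line and vector on the 6 libraries left 2 residual degrees of freedom (coefficient of variation 14.7%), and that on all 10 left 4. The interaction model left 1. In the additive fits the error was moderated over genes, with 7.25 prior degrees of freedom for 6 libraries and 8.41 for 10. Standard errors are the log2 fold change divided by the square root of F. DESeq2 1.42.0 was an alternative. The procedure was tested on simulated counts. CPM values are scaled by library totals alone. Reads carry no molecular identifiers, so floors cover counting error only.

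Members, gene lists and alternatives were chosen with earlier results of these data known. Named genes were the 12 higher and 12 lower kept genes with an average of at least 1 on the log2 CPM scale, the same direction in both treatments, and the largest value of the smaller of both absolute log2 fold changes, plus ABCA3, surfactant genes, EGFP, tdTomato and kept list members. With 3 genes kept, the rule was applied to the 10-library fit as well. The checks around that fit, and the 12 genes kept throughout them except with the 6 libraries alone, were chosen after seeing the data. For the interaction, the goblet members called and the 6 most raised and 6 most lowered genes are given. Gene positions are from GENCODE release 29 on GRCh38. Distances between libraries used genes averaging 10 CPM or more, with a pseudocount of 0.5 CPM, and positions of WT and KO a pseudocount of 0.05 CPM. Some results are not reported here.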

Additional observations from a re-analysis of the deposited data

Results flagged for a closer look

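The difference between L101P and the type 2 lines depended on the vector label in 400 genes by edgeR's interaction test, on 1 residual degree of freedom. Among goblet genes the interaction on the log2 scale was 4.29 for MUC2, 4.01 for CEACAM5, 3.83 for BPIFB1, 2.99 for MUC5AC, 2.79 for TFF1, 2.48 for CEACAM6, 2.10 for CREB3L1, 1.98 for MUC5B, 1.94 for AGR2, 1.58 for MUC13, 1.40 for ST6GALNAC1, 1.31 for FCGBP, 0.84 for FOXA3, 0.76 for SPDEF, 0.70 for GALNT5 and 0.69 for GCNT3. CEACAM5 went from 2.05 to 33.5 CPM in L101P and stayed at 1.86 and 2.43 CPM in E292V, while MUC2 and BPIFB1 were under 5 CPM in every variant library. CEACAM5 also went from 8.66 to 23.7 CPM in the line labelled KO, and was at 3.66 and 3.14 CPM in WT.

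Outside that list, the interaction was 4.24 for EGFP, 3.32 for CST1 (a secreted cystatin) and 2.55 for PARM1. It was -3.06 for ADAMTS12, -2.99 for SPARC, -2.74 for FLRT2, -2.55 for DPYSL3, -2.31 for CDH4 and -1.90 for ZNF548. In each of these negative ones L101P fell with the vector label while E292V and WT rose. FLRT2 went from 0.959 to 0.331 CPM in L101P, 18.1 to 61.1 CPM in E292V and 8.19 to 23.4 CPM in WT. ADAMTS12, SPARC and FLRT2 were under 1 CPM in both L101P libraries. CST1 went from 7.05 to 62.2 CPM in L101P.

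The vector carries a GFP tag. EGFP was counted in the 3 variant libraries labelled untreated, at 1.01 CPM in L101P, 20.7 CPM in E292V and 16.3 CPM in E690K. One of the 4 type 2 libraries lay far from the other 3 for EGFP, with a gap of 0.913 of the group's range, and for SPDEF, with a gap of 0.834; both exceed the critical value of Dixon's test. Of 32 such sets of 4 libraries examined, chance flags about 1 in 20.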

How the results depend on the processing

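Vector status in the model already compares the lines within treatment, and the labels give no replicate numbers for a further pairing. Variant type, line and culture cannot be told apart. The error of the 6-library results rests on 2 residual degrees of freedom and on the spread shared over genes.

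Genes kept, 3 in the 6-library fit, numbered 60 with 10 libraries, 16 with the 8 libraries without the KO pair, 103 in the DESeq2 Wald test, 224 without a low-count filter, 7 with at least 10 counts in each library, 0 without the vector covariate and 1 at an adjusted p under 0.01. Leaving out single libraries gave 1 to 1089. Calls against E690K, 5 at first, were 124, 28, 213, 375, 15 and 0 under the first 6 of these settings, and 122 with the L101P and E690K pairs alone. The 0 of edgeR without the vector covariate stood beside 1594 genes at an unadjusted p under 0.05. Leaving out libraries gave 1 to 1430 calls.

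Calls against E292V went from 819 to 3587 when libraries were left out. Calls between E292V and E690K were 1943 without a filter and 275 to 3126 when libraries were left out. Calls against the type 2 mean, 455 at first, were 1041 with 10 libraries, 683 with 8, 920 in the Wald test, 1298 without a filter and 47 to 2567 when libraries were left out. The interaction, 400 at first, was called for 155 genes in the Wald test and 177 with 10 libraries and the KO labels exchanged. The 60 genes became 23 with the KO labels exchanged, 16 without the KO pair, 3 with the 6 libraries alone, and 54 to 994 without an L101P library. Exchanging the KO labels, taking the pairs alone and varying the 10-library set were chosen after seeing the data. So were taking list medians without an L101P library and counting list members by interaction setting.

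Some small differences changed sign when a library was left out. FOSL1 against E292V (0.05) was -0.01 without untreated L101P and -0.12 without untreated E292V, in a range of -0.12 to 0.21. ABCA3 against E292V (0.08) was -0.16 and -0.03 in the same settings, in a range of -0.16 to 0.27. ABCA3 against E690K (0.13) was -0.094 without untreated L101P and -0.01 without untreated E690K, in a range of -0.094 to 0.34. The cause was not tested in any of these. Among genes named in the 10-library fit, 210 recomputed values kept their side of the threshold and 54 lost it, none with a change of sign; for the interaction these were 135 and 36.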
